A study of Mus musculus with 20 samples.

Results

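The 10 genes described here are Cldn5, Cdh5, Pecam1, Flt1, Tek, Slco1a4, Abcb1a, Ly6c1, Vwf and Itm2a, which are known as markers of the endothelial cells that line brain blood vessels. They were taken by symbol from the 24062 genes of the deposited expression table, by a rule that uses no expression value. The genes were nevertheless chosen with earlier results of these data known. All 10 were present and passed the filter on low values at both ages. They were measured in RNA from the microglia fraction of 20 male mice, with 1 whole brain per sample and no pooling of animals. At 7 months of age there were 6 mThy1-α-synuclein and 4 wild-type mice, and at 10 months there were 5 and 5. The mThy1-α-synuclein mice carry the full-length human wild-type α-synuclein gene on the X chromosome, driven by the murine Thy-1 promoter, which acts mainly in neurons, and the wild-type mice are their littermates on the same B6D2F1/J background. The labels give IBA1 as the marker used to select the cells, and the study's methods describe magnetic beads against CD11b, which mark microglia and other myeloid cells. The study estimated the purity of the microglia from its protocol, and it did not measure how many cells of other types were left after selection. The comparison asked of these genes is whether the RNA of vessel cells in the fraction differed between genotypes at each age, and whether that difference changed between the ages.

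Values are normalized counts, that is, reads counted on a gene divided by a size factor for each mouse. Between 33404096 and 77806399 reads were counted on genes per mouse, and the 10 genes had between 44 and 4075 reads in a mouse. Relative to the level, counting error weighs most on the lowest of these values. Its share of the spread between mice was not tested. The genotype labels were checked with Thy1, the gene whose promoter the transgene uses. Thy1 had 392 to 1298 normalized counts in 7-month-old and 1117 to 1741 in 10-month-old mThy1-α-synuclein mice, against 17.7 to 47.6 and 9.41 to 32.4 in wild-type mice. At both ages every mThy1-α-synuclein mouse lay above every wild-type mouse. In 10-month-old mThy1-α-synuclein mice, replicate 5 had the lowest value of its group for 8 of the 10 endothelial genes and replicate 4 the highest for 10 of 10, so results at this age are also given without either mouse. Both mice were thus picked from the values of these genes. In wild-type mice of that age replicate 3 was highest for 8 and replicate 1 lowest for 7. Leaving out either of these wild-type mice turned no sign at 10 months.

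Endothelial cells of the brain form the blood-brain barrier. Tight junctions seal the gaps between neighboring cells, few vesicles cross them, and transporters in their membranes decide which compounds enter the brain or are returned to the blood. Wnt signals from the surrounding tissue and contact with pericytes keep this program on. Endothelial cells do not make CD11b or IBA1, and the cell of origin of each read was not measured. Pecam1 is also made by myeloid cells and platelets, Vwf by megakaryocytes and platelets, and Ly6c1 belongs to a gene family with a close relative in monocytes. In RNA of a whole fraction, fewer cells of a type and less RNA per cell cannot be told apart.

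All 10 genes were low beside microglia genes when levels were compared per length of exon. In 7-month-old wild-type mice, Pecam1 had 513 normalized counts per kb of exon, Ly6c1 307, Cldn5 130.1, Abcb1a 90.7, Itm2a 89.3, Flt1 63.5, Cdh5 51.4, Slco1a4 51.0, Tek 38.7 and Vwf 20.7. P2ry12, a purinergic receptor that marks microglia, had 117350.0 on the same scale, which was 229 times the level of Pecam1 and 5675 times that of Vwf. Among the 13162 genes ranked per kb in this group, the endothelial genes lay between the percentiles 17.9 (Vwf) and 71.0 (Pecam1), and P2ry12 lay at 99.9. Flt1, Cdh5 and Slco1a4 stood next to each other in this order, and their group SDs of 8.40, 13.03 and 12.0 per kb were as large as the gaps between them or close to it, so their order is not resolved. In 10-month-old wild-type mice Ly6c1 stood first with 568 ± 195 per kb and Pecam1 next with 410.5 ± 85.8 (SD, n = 5), which is also within the spread.

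**Figure D1:**
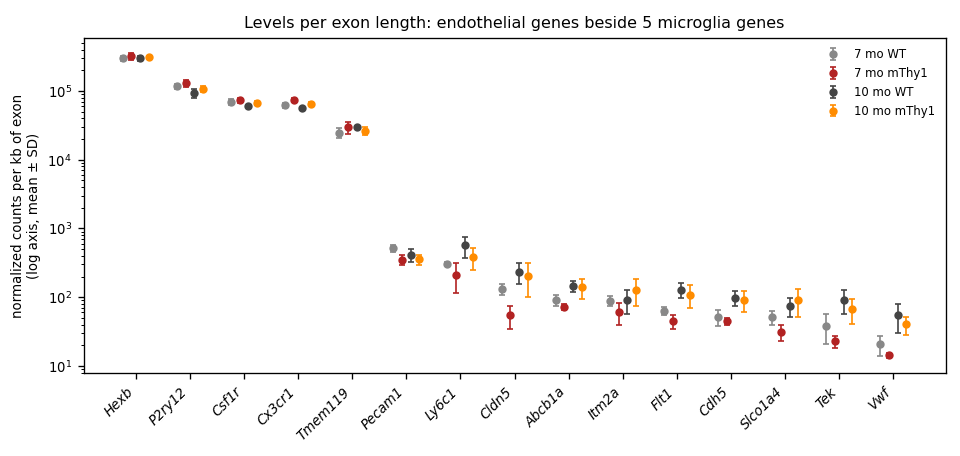
Level of 5 microglia genes and the 10 endothelial genes in normalized counts per kb of exon on a log axis, as mean ± SD of the 4 groups (7-month-old wild-type n = 4 and mThy1-α-synuclein n = 6, 10-month-old n = 5 and 5). In 7-month-old wild-type mice Pecam1 and Ly6c1 had 513 and 307 per kb, and the lowest of the 5 microglia genes, Tmem119, had 24854.

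Promoter sequences are shown for the pairs of genes whose levels moved together most closely from mouse to mouse, which were Slco1a4 with Itm2a and Cldn5 with Flt1 (correlations are given after the results of the single genes). They are the 250 bases before the RefSeq start site on GRCm38.p6, written 5′ to 3′ on the strand of the gene, and capitals mark the motifs that were found. Short core sequences of families of endothelial regulators were searched on both strands, namely AGGAAG and CCGGAAG for ETS factors, GTAAACA for forkhead factors, ACAATG for SOX factors, AGATAA for GATA factors and CTTTGA for TCF/LEF factors of the Wnt pathway. None of these overlaps another in the sequences shown, other than 2 neighboring ETS matches in Itm2a.
Cldn5: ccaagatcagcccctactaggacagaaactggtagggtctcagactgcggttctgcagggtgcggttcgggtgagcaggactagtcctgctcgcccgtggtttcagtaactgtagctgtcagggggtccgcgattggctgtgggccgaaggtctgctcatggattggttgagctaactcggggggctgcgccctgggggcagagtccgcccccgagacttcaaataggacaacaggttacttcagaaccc
Flt1: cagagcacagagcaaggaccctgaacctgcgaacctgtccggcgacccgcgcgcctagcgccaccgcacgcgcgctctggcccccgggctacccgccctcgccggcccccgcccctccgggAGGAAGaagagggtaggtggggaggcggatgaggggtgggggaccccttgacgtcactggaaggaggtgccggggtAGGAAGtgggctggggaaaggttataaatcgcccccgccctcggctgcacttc
Slco1a4: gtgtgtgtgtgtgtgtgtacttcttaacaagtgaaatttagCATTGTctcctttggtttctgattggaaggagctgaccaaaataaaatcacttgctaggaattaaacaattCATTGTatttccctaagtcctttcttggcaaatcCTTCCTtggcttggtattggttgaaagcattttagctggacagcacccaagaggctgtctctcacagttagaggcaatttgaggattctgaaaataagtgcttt
Itm2a: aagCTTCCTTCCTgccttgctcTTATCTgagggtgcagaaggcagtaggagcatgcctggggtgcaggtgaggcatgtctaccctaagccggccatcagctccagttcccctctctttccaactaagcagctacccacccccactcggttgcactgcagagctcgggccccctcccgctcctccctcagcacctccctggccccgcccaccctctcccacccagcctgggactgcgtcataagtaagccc
The window of Cldn5 is chr16:18776597-18776846 on the plus strand and held no match. That of Flt1 is chr5:147726012-147726261 on the minus strand and held 2 AGGAAG, at 129 and 53 bases before the start. The window of Slco1a4 is chr6:141856221-141856470 on the minus strand and held 1 AGGAAG and 2 ACAATG, all on the opposite strand. That of Itm2a is chrX:107403361-107403610 on the minus strand and held 2 AGGAAG and 1 AGATAA on the opposite strand. AGGAAG occurred in 29.5% of the 32851 promoter windows of the same length, ACAATG in 10.7% and AGATAA in 9.99%, and a match is a description of the letters and not a bound site. Of the 10 genes, 7 had an entry in the promoter table, and Pecam1, Cdh5 and Vwf did not. The 4 promoters differ in base composition, with a GC content of 59.6% in Cldn5, 70.4% in Flt1, 39.2% in Slco1a4 and 62.8% in Itm2a.

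At 7 months the endothelial genes lay lower in mThy1-α-synuclein mice than in wild-type mice. All 10 had a log2 fold change (mThy1-α-synuclein over wild-type) below 0, where 49.8% of the 13887 tested genes did, and their median was -0.57 against 0.00093 over all genes. The 10 genes tended to rise and fall together from mouse to mouse, as described below, so they do not count as 10 separate results. Cldn5 and Pecam1 fell past the cutoff of 0.05 on the p-value that limma gave after Benjamini-Hochberg adjustment over all tested genes, that is 2 of 10 genes, where 4.93% of all tested genes passed in either direction and 2.7% were lower. The other 8 did not pass, and of all 10, 8 had an unadjusted p under 0.05 with a lower level, where 10.6% of all genes did. Cldn5 and Pecam1 were also the 2 genes for which every mThy1-α-synuclein mouse lay below every wild-type mouse, as was seen for 3.97% of all genes.

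At 10 months none of the 10 passed the cutoff (limma with Benjamini-Hochberg adjustment), where 7.67% of the 13627 tested genes did. No unadjusted p was under 0.05 either, where 23.5% of all genes had one, and edgeR and DESeq2 on the recovered reads called 0 of 10 as well. The log2 fold change was below 0 for 8 genes (50.5% of all genes) and above 0 for Slco1a4 and Itm2a, with a median of -0.23 and a range from -0.56 to 0.44, and the genotypes overlapped for each of the 10, while 7.27% of all genes had no overlap. Without mThy1-α-synuclein replicate 5, 5 genes lay below 0 and 5 above, with a median of -0.030. Without replicate 4, 8 lay below 0 and 2 above, with a median of -0.37, and again none passed (limma, smallest adjusted p = 0.141, for Ly6c1, which was the 1 gene with an unadjusted p under 0.05). The difference between the ages was itself tested in a single fit of all 20 mice, by taking the 7-month genotype difference from the 10-month one. The result was above 0 for all 10 genes (50.1% of all genes) with a median of 0.24, and none of the 10 passed the cutoff (limma with Benjamini-Hochberg adjustment), where 6.36% of the 14457 tested genes did. Here too the shared direction does not count as 10 separate results. Slco1a4 and Itm2a had an unadjusted p under 0.05 with a value above 0, as did 11.5% of all genes, and edgeR and DESeq2 called 0 of 10.

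**Figure D2:**
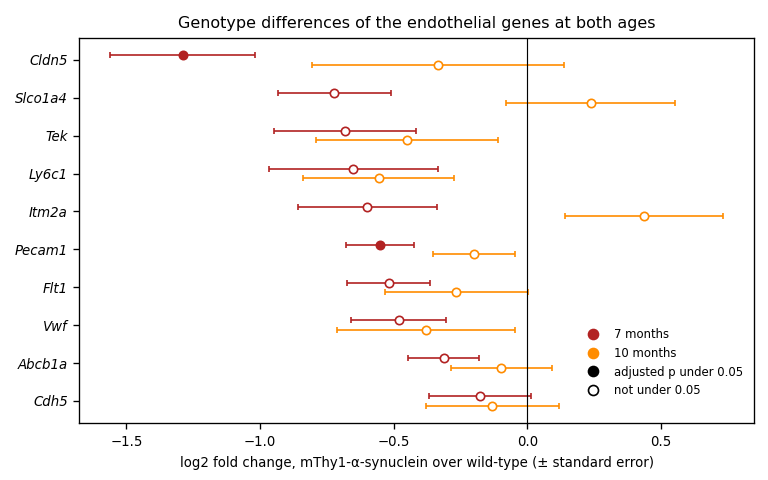
Log2 fold change of each endothelial gene (mThy1-α-synuclein over wild-type) at 7 months (red, 6 against 4 mice) and 10 months (orange, 5 against 5 mice), with bars of ± 1 standard error from limma and filled points for an adjusted p under 0.05. At 7 months all 10 points lie below 0 and those of Cldn5 and Pecam1 are filled, and at 10 months Slco1a4 and Itm2a lie above 0 and no point is filled.

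Among the junction genes, the largest difference was that of Cldn5 (on chromosome 16 from 18776847 to 18778262 in mm10), which codes for claudin 5, the main claudin of endothelial tight junctions. At 7 months its normalized counts, given here and for the other genes in the order of the replicate numbers, were 194, 169, 149 and 225 in wild-type mice and ranged from 49.3 to 117 with a median of 65.2 in the 6 mThy1-α-synuclein mice. The groups were apart, since the highest mThy1-α-synuclein mouse stayed under the lowest wild-type mouse. The means were 78.0 ± 29.1 against 184 ± 32.6 (SD, n = 6 and 4), a level 2.44-fold higher in wild-type on the fitted scale (limma, log2 fold change -1.29, SE 0.27, adjusted p = 0.0125 after Benjamini-Hochberg adjustment, where SE is the standard error of the fit). At 10 months the values were 196, 307, 472, 261 and 413 in wild-type mice and 278, 246, 424, 434 and 75.3 in mThy1-α-synuclein mice. All but 1 of the latter lay inside the wild-type range and replicate 5 lay below it. The difference at 10 months did not pass (limma, log2 fold change -0.33, SE 0.47, adjusted p = 0.723). Without replicate 5 its sign turned (log2 fold change 0.093, SE 0.26, adjusted p = 0.883 from limma), and the age difference rose from 0.95 (limma adjusted p = 0.316) to 1.38 (limma adjusted p = 0.0323). The call of Cldn5 at 7 months was lost without wild-type replicate 1 (limma adjusted p = 0.0552).

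Pecam1 (on chromosome 11 from 106654217 to 106750628) codes for an adhesion molecule at endothelial cell borders that myeloid cells and platelets carry too. Its 7-month values were 2806, 3096, 3245 and 3628 in wild-type mice and 1575 to 2656 with a median of 2161 in mThy1-α-synuclein mice, again without overlap. The means of 3194 ± 342 and 2202 ± 394 differed by -0.55 on the log2 scale (limma, SE 0.13, adjusted p = 0.0238). This call was lost without mThy1-α-synuclein replicate 2 (limma adjusted p = 0.0538) and without wild-type replicate 2, 3 or 4 (limma adjusted p = 0.059, 0.0782 and 0.0702). At 10 months Pecam1 had 1781, 2779, 3139, 2266 and 2817 in wild-type and 2246, 1958, 2188, 2813 and 1824 in mThy1-α-synuclein mice, and the ranges overlapped (limma, log2 fold change -0.20, SE 0.15, adjusted p = 0.469).

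Cdh5 (on chromosome 8 from 104101625 to 104144511) codes for VE-cadherin, the cadherin of endothelial adherens junctions, and had the smallest 7-month difference of the 10. Wild-type mice had 203, 261, 144 and 256 normalized counts and mThy1-α-synuclein mice 154 to 218 with a median of 185. The lowest value of all was that of wild-type replicate 3, so the wild-type range enclosed all mThy1-α-synuclein mice (limma, log2 fold change -0.18, SE 0.19, adjusted p = 0.633). The 10-month values were 276, 447, 534, 366 and 447 against 303, 412, 499.8, 520.2 and 211, again overlapping (limma, log2 fold change -0.13, SE 0.25, adjusted p = 0.798), and the sign turned without mThy1-α-synuclein replicate 5 (log2 fold change 0.070).

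Flt1 and Tek code for receptors of vascular growth signals. Flt1 (on chromosome 5 from 147561604 to 147726011), the VEGF receptor 1, had 901, 854, 703 and 971 normalized counts in 7-month-old wild-type mice and 428 to 846 with a median of 574 in mThy1-α-synuclein mice. Only mThy1-α-synuclein replicate 4, with 846, reached into the wild-type range. The means were 606 ± 138 against 857 ± 113 (SD, n = 6 and 4), and the difference did not pass the cutoff (limma, log2 fold change -0.52, SE 0.16, adjusted p = 0.068), while without replicate 4 it did (limma adjusted p = 0.0144). Replicate 4 was the highest mThy1-α-synuclein mouse for Flt1, so leaving it out could only widen the difference, and that call is no separate support. At 10 months wild-type mice had 1161, 1696, 2319, 1548 and 1889 and mThy1-α-synuclein mice 1435, 1237, 1565, 2304 and 829.8, with 1 of the latter below every wild-type mouse and none above (limma, log2 fold change -0.27, SE 0.27, adjusted p = 0.603).

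Tek (on chromosome 4 from 94739289 to 94874976), the angiopoietin receptor Tie2, varied widely in 7-month-old wild-type mice, with 125, 183, 123 and 299, and wild-type replicate 4 alone stood well above the rest. The mThy1-α-synuclein mice had 79.5 to 130.0 with a median of 108, so the groups overlapped (limma, log2 fold change -0.68, SE 0.26, adjusted p = 0.149). At 10 months wild-type mice had 211, 401, 502, 396 and 646 and mThy1-α-synuclein mice 259, 290.4, 412, 468 and 157, which overlapped as well (limma, log2 fold change -0.45, SE 0.34, adjusted p = 0.469).

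Slco1a4 and Abcb1a are the transporters among the 10. Slco1a4 (on chromosome 6 from 141805440 to 141856199) codes for an organic anion transporter of the barrier, and its 7-month values were 440.4, 292, 269 and 305 in wild-type and 139 to 271 with a median of 188 in mThy1-α-synuclein mice. All but 1 of the mThy1-α-synuclein mice lay below every wild-type mouse, and replicate 4, with 271, lay just above the lowest wild-type mouse, with 269. The 7-month difference missed the cutoff (limma, log2 fold change -0.72, SE 0.21, adjusted p = 0.0634) and passed without replicate 4 (limma adjusted p = 0.0314). Since replicate 4 was the highest of its group, leaving it out could only widen the difference, and that call is no separate support. The values at 10 months were 345, 371, 716, 435 and 529 in wild-type and 694, 306, 627, 944 and 382 in mThy1-α-synuclein mice (limma, log2 fold change 0.24, SE 0.31, adjusted p = 0.706). Replicate 4 of the latter lay above and replicate 2 below every wild-type mouse. The change between the ages was 0.96 on the log2 scale (limma, SE 0.39, unadjusted p = 0.0227, adjusted p = 0.149). Its close relatives Slco1a1, Slco1a5 and Slco1a6 had at most 3.54, 10.7 and 3.54 normalized counts in any mouse.

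Abcb1a (on chromosome 5 from 8660077 to 8748575) codes for P-glycoprotein, the efflux pump of the barrier. Wild-type mice had 429, 539.7, 423 and 597 normalized counts at 7 months and mThy1-α-synuclein mice 333 to 439 with a median of 401. Wild-type replicates 2 and 4 stood above all mThy1-α-synuclein mice and replicates 1 and 3 among them (limma, log2 fold change -0.31, SE 0.13, adjusted p = 0.191). In the older mice the genotypes had 650.2, 723, 963, 720.4 and 916 and 749, 591, 776, 1162 and 532 (limma, log2 fold change -0.098, SE 0.19, adjusted p = 0.8), and the sign turned without mThy1-α-synuclein replicate 5 (log2 fold change 0.017). The neighboring copy Abcb1b, which microglia also transcribe, had 3549.6 ± 205 and 3445 ± 224 (SD) at 7 months, and 4.41% of the 150-base windows of the Abcb1a transcript occur in it unchanged, so reads from these windows could not be assigned with certainty. At 10 months Abcb1b was higher in mThy1-α-synuclein mice, with 3616 ± 80.9 against 3063 ± 219.7 (limma, log2 fold change 0.24, SE 0.065, adjusted p = 0.0366).

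Ly6c1, Vwf and Itm2a are genes of the endothelial surface or secretion. Ly6c1 (on chromosome 15 from 75044018 to 75048830), a GPI-anchored surface protein of many vessel cells, had 565, 515, 504 and 473 in 7-month-old wild-type mice, which is a narrow range. The mThy1-α-synuclein mice ranged from 153 to 641 with a median of 311, and replicate 5 of them was above every wild-type mouse (limma, log2 fold change -0.65, SE 0.32, adjusted p = 0.264). At 10 months the values were 676, 1169, 1396, 633 and 889 in wild-type and 522, 468, 838, 953 and 462 in mThy1-α-synuclein mice, of which replicates 1, 2 and 5 lay below every wild-type mouse (limma, log2 fold change -0.56, SE 0.28, adjusted p = 0.269). Its relative Ly6c2, a monocyte gene, shares 5.61% of the 150-base windows of the Ly6c1 transcript and 31.7% of the 50-base windows, and had 524 to 3916 with a median of 1439 in the same 7-month-old mThy1-α-synuclein mice. Replicate 5 was the highest of them for Ly6c2 as well, with 3916, so the level of Ly6c1 in this mouse is uncertain.

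Vwf (on chromosome 6 from 125546774 to 125686679) codes for von Willebrand factor, which endothelial cells and platelets store and release in clotting. Its 7-month values were 255, 309, 275 and 489.5 in wild-type and 205 to 268 with a median of 226 in mThy1-α-synuclein mice. Only mThy1-α-synuclein replicate 4, with 268, lay above the lowest wild-type mouse, and wild-type replicate 4 stood apart at the top (limma, log2 fold change -0.48, SE 0.18, adjusted p = 0.131). At 10 months the genotypes had 516, 888, 1033, 501 and 1462 and 613, 581, 812, 839 and 383 (limma, log2 fold change -0.38, SE 0.33, adjusted p = 0.544). The ranges overlapped at both ages.

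Itm2a (on chromosome X from 107397099 to 107403376), a transmembrane protein found in brain endothelium and in some other cells, had 169.9, 169, 116 and 168 in 7-month-old wild-type mice, of which replicate 3 stood apart from 3 nearly equal values. The mThy1-α-synuclein mice ranged from 65.0 to 165 with a median of 102, and 3 of the 6 lay above the lowest wild-type mouse (limma, log2 fold change -0.60, SE 0.26, adjusted p = 0.199). At 10 months wild-type mice had 132, 146, 271, 129 and 125, with replicate 3 far above the others, and mThy1-α-synuclein mice had 276, 124, 219, 359 and 144, of which 2 lay above and 1 below every wild-type mouse (limma, log2 fold change 0.44, SE 0.30, adjusted p = 0.405). The change between the ages was 1.04 on the log2 scale (limma, SE 0.41, unadjusted p = 0.0175, adjusted p = 0.129).

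**Figure D3:**
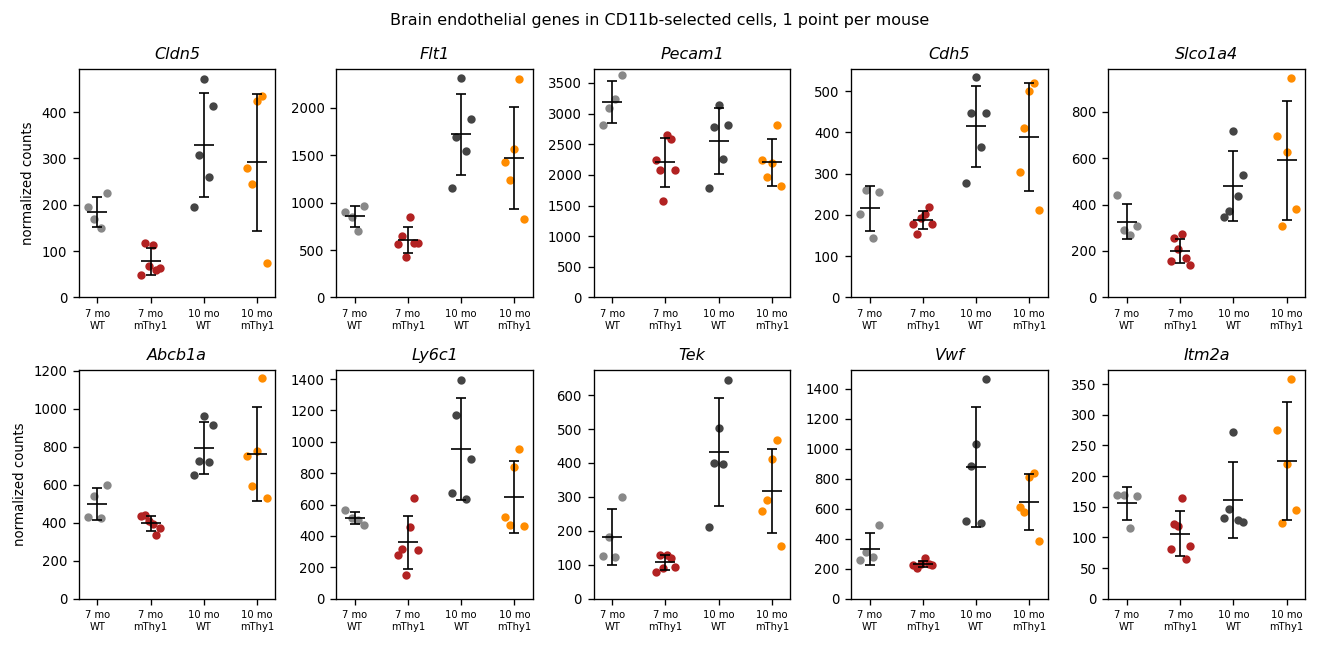
Normalized counts of the 10 endothelial genes, with 1 point per mouse, a long bar for the group mean and short bars for ± SD (7-month-old wild-type n = 4 and mThy1-α-synuclein n = 6, 10-month-old n = 5 and 5). In Cldn5 and Pecam1 the 7-month groups do not overlap, and in the other 8 genes at 7 months and all 10 at 10 months they do.

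The genes tended to be high or low together within a mouse. In 7-month-old mThy1-α-synuclein mice replicate 4 was highest for 6 of the 10 genes, in 7-month-old wild-type mice replicate 4 for 6 and replicate 3 lowest for 7, and in 10-month-old wild-type mice replicate 3 was highest for 8 and replicate 1 lowest for 7. The 10 genes summed to 65.5 to 107 counts per 1000000 reads in 7-month-old mThy1-α-synuclein mice and to 109.7 to 146 in wild-type mice of that age. The 10-month sums were 104 to 227 and 123 to 242. The 7-month ranges thus did not overlap and the 10-month ranges did. Pecam1 made up much of these sums, and without it the normalized counts of the other 9 summed to 1897 to 2844 and 2706 to 3783 at 7 months, which overlapped.

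The spread between mice of a group was larger for these 10 genes than the median of a comparison set. That set held all genes with a mean between the lowest and the highest mean of the 10, where Pecam1 was the highest. It was not matched in level to the single genes. The median coefficient of variation over the 10 genes was 21.6% in the 7-month-old transgenic group and 17.5% in their wild-type littermates, and 36.1% and 32.7% at 10 months. Genes within the same range of mean level had medians of 13.5%, 11.9%, 10.8% and 11.9%. At 10 months the largest coefficient was that of Cldn5 in mThy1-α-synuclein mice, with 50.6%, and Pecam1 had the smallest of that group, with 17.2%.

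**Figure D4:**
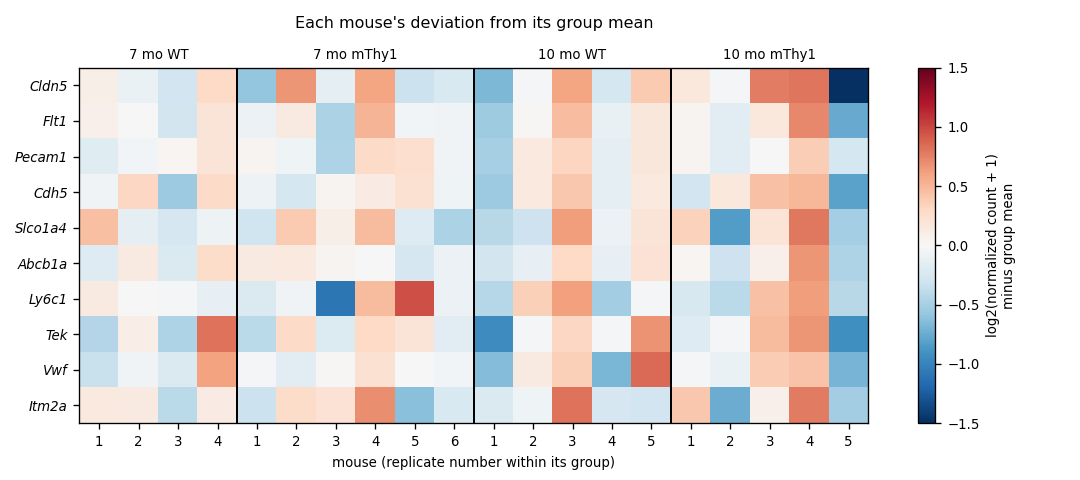
Deviation of each mouse from the mean of its group on the log2(normalized count + 1) scale, with genes in rows and mice in columns (red above and blue below the group mean). In 10-month-old mThy1-α-synuclein mice all 10 genes are above the group mean in replicate 4 and all 10 are below it in replicate 5.

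This was described with correlations of log2 values after the mean of each group was taken off, over 20 mice that were processed together within each age. Pearson's r was above 0 for all 45 pairs of the 10 genes, with a median of 0.69. It was highest for Slco1a4 with Itm2a (r = 0.87), Cldn5 with Flt1 (r = 0.86) and Tek with Vwf (r = 0.84), and lowest for Abcb1a with Ly6c1 (r = 0.30). Flt1 was the gene most like the others, with a median r of 0.74, and Itm2a the least, with 0.42. For each of the 10 genes the median r was higher over the 10-month-old mice than over the 7-month-old mice, as for Slco1a4 with 0.70 and 0.063. Outside the list, the genes whose pattern over the 20 mice was most like the mean of the 10 were Gpr116 (r = 0.90), Spock2 (r = 0.90), Ptn (r = 0.88), Alpl (r = 0.87) and Tsc22d1 (r = 0.87), of 14447 genes whose median r was -0.01 and whose 95th percentile was 0.47. Spock2, a proteoglycan of brain capillaries, was lower in mThy1-α-synuclein mice at 7 months (222 ± 89.8 against 544 ± 63.8; limma, log2 fold change -1.37, SE 0.24, adjusted p = 0.00457), as was the growth factor Ptn (limma, log2 fold change -1.08, SE 0.27, adjusted p = 0.0342). Gpr116, Alpl and Tsc22d1 had log2 fold changes of -0.64, -1.08 and -0.14 that did not pass (limma adjusted p = 0.193, 0.121 and 0.487).

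The levels at the 2 ages are given side by side and were not tested, since mice of each age were processed together and normalized separately, so that age cannot be told apart from processing. In mThy1-α-synuclein mice the mean normalized count at 10 months was above that at 7 months for 10 of 10 genes, with a median ratio of 2.27, and in wild-type mice for 9 of 10, with a median ratio of 1.82. The median ratio over all 14457 genes was 0.927 and 0.934. The ratio in mThy1-α-synuclein mice was 3.74 for Cldn5, 2.96 for Slco1a4 and 2.95 for Tek, and in wild-type mice 1.79, 1.47 and 2.36. Pecam1 was the exception, with 1.00 and 0.801. For 4 of the 10 genes every 10-month-old mThy1-α-synuclein mouse lay above every 7-month-old one, where 0.678% of all genes did, and for 5 in wild-type mice, where 2.49% did. With reads scaled to the library total in place of the size factors, a setting chosen after the data were seen, these counts were 6 (1.65% of all genes) and 5 (6.88%).

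Other genes of the endothelium were grouped by what they do. Over all tested genes 2.7% were lower and 2.23% higher past the cutoff at 7 months and 3.79% and 3.88% at 10 months, and between the ages 2.62% had a negative and 3.74% a positive value past it. At an unadjusted p under 0.05, 10.6% were lower and 10.7% higher at 7 months, and 12% and 11.5% at 10 months. Of 25 tested genes of endothelial identity (receptors, transcription factors and surface proteins of vessel cells, outside the 10), 22 had a log2 fold change below 0 at 7 months with a median of -0.49, and 1 passed, Ecscr, a regulator of endothelial migration (4562 ± 458 against 5601 ± 208; limma, log2 fold change -0.30, SE 0.079, adjusted p = 0.0381). The other 3 lay above 0, and at an unadjusted p under 0.05 in limma 6 of the 25 were lower and 2 higher. At 10 months 19 of 26 lay below 0 with a median of -0.27, and 0 passed with limma or edgeR (3 were lower and 1 higher at an unadjusted p under 0.05 in limma, and DESeq2 called 2). Ecscr was the 1 gene of this group to pass in the test between the ages (limma, log2 fold change 0.59, SE 0.17, adjusted p = 0.0358). Its level in 7-month-old wild-type mice was 3197 normalized counts per kb of exon, against 20.7 (Vwf) to 513 (Pecam1) for the 10 genes. The share of Ecscr that came from vessel cells was not tested. Esam, an adhesion molecule of endothelial junctions, had 28.9 ± 14.9 against 58.8 ± 7.30 at 7 months, which did not pass (limma, log2 fold change -1.22, SE 0.47, adjusted p = 0.147).

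Genes of the barrier were taken next. Of 15 tested barrier transporters 0 passed at 7 months with limma (2 were lower and 2 higher at an unadjusted p under 0.05, and DESeq2 called 3), and the median log2 fold change was 0.00. At 10 months Abcg2, an efflux pump, and Abcb1b were higher (limma, log2 fold change 0.31 and 0.24, adjusted p = 0.0417 and 0.0366) and Slc2a1, the glucose transporter, was lower (2192 ± 463 against 2882 ± 303; limma, log2 fold change -0.41, SE 0.12, adjusted p = 0.0491). Each of these 3 had group means above 1800 normalized counts, and the share of them that came from vessel cells was not tested. In the Wnt pathway of the barrier, 1 of 13 tested genes passed at 7 months, the target and transcription factor Lef1, which was lower (30.1 ± 12.5 against 79.2 ± 18.3; limma, log2 fold change -1.43, SE 0.36, adjusted p = 0.0315), and 0 of 13 passed at 10 months with limma (0 were lower and 1 higher at an unadjusted p under 0.05). Of 17 tested junction partners, Jup, a plakoglobin that binds VE-cadherin, was lower at 7 months (limma, log2 fold change -0.31, SE 0.073, adjusted p = 0.0237). At 10 months the cadherin partner Ctnnd1 was higher and the junction molecule F11r lower (limma, log2 fold change 0.37 and -0.37, adjusted p = 0.00361 and 0.0432). In 7-month-old wild-type mice Jup, Ctnnd1 and F11r had 347, 2122 and 9915 normalized counts per kb of exon. The share of them that came from vessel cells was not tested.

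Of the ligands and receptors of VEGF and the angiopoietins, among which Flt1 and Tek are counted, 0 of 13 tested passed at 7 months with limma (at an unadjusted p under 0.05 Flt1 and Tek were lower and 3 others higher, and DESeq2 called 1). At 10 months Vegfa, the main vessel growth signal, was lower in mThy1-α-synuclein mice, with 116 ± 29.1 against 237 ± 49.2 normalized counts (SD, n = 5 and 5; limma, log2 fold change -1.04, SE 0.21, adjusted p = 0.0095). By vessel type, the capillary genes had a median log2 fold change of -0.92 at 7 months, over 8 tested, and of 0.045 at 10 months, over 7. The arterial genes had medians of -0.46 and -0.60, with 11 of 14 and 14 of 15 below 0. The venous and activation genes had 0.087 and -0.34, with 4 of 9 and 9 of 11 below 0. The share of these and of the arterial and venous genes that came from vessel cells was not tested. Spock2 and Cxcl12, a chemokine of capillary endothelium, passed at 7 months (Cxcl12 143 ± 48.7 against 375 ± 107; limma, log2 fold change -1.41, SE 0.27, adjusted p = 0.00787). Of 14 tested arterial genes, Hey1, a Notch target, was lower and Efnb2, the arterial ephrin B2, was higher at 7 months (limma, log2 fold change -2.11 and 1.05, adjusted p = 0.0207 and 0.00475), and the kinase Bmx was lower at 10 months (limma, log2 fold change -0.78, SE 0.18, adjusted p = 0.0196). Of 9 tested venous and activation genes, the adhesion molecule Vcam1 was higher at 7 months (5061 ± 1383 against 1587 ± 262; limma, log2 fold change 1.64, SE 0.21, adjusted p = 0.00275), against the direction of the 10 genes, and higher at 10 months as well (limma, log2 fold change 0.43, SE 0.11, adjusted p = 0.0283), when 3 of the 11 tested genes of this list were lower at an unadjusted p under 0.05.

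**Figure D5:**
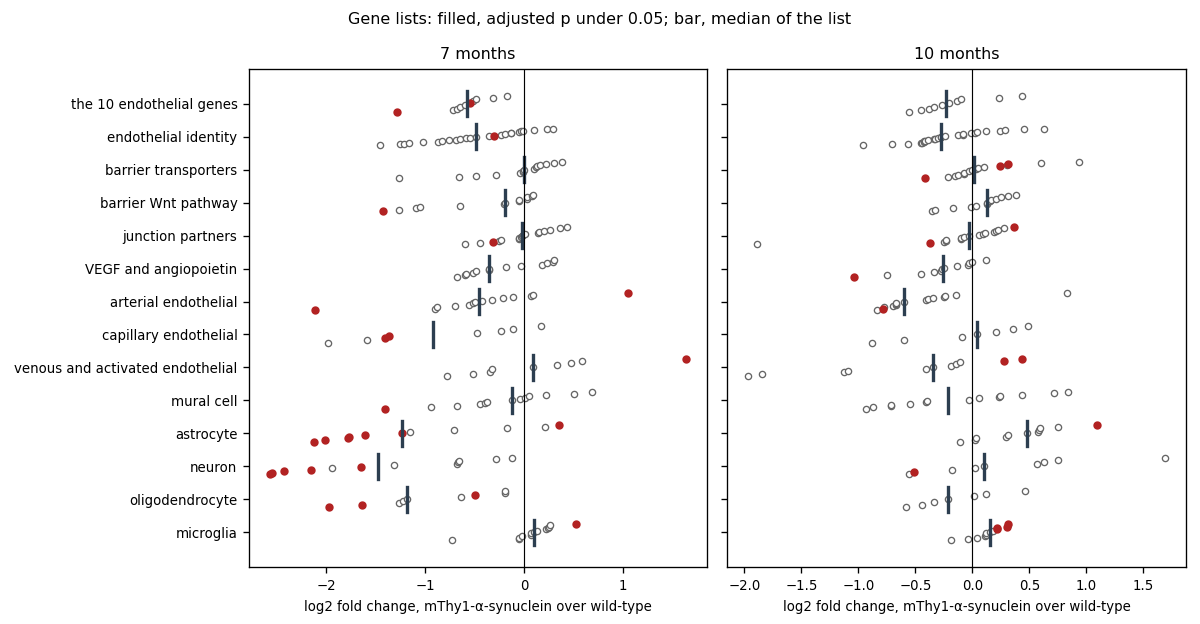
Log2 fold change (mThy1-α-synuclein over wild-type) of each tested gene in 14 lists at 7 months (left) and 10 months (right), with filled points for a limma adjusted p under 0.05 and a bar at the median of each list. At 7 months the medians of the 10 endothelial genes, of endothelial identity and of the astrocyte, neuron and oligodendrocyte lists lie below 0, and at 10 months those of astrocyte and neuron genes lie above 0.

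Markers of other brain cells moved with the endothelial genes at 7 months. Of 11 astrocyte genes 6 passed with a lower level and 1 with a higher level in the transgenic mice, as did 5 of 12 neuron genes and 3 of 9 tested oligodendrocyte genes, all lower (limma with Benjamini-Hochberg adjustment), with medians of -1.24, -1.48 and -1.18. The neuron genes summed to 617 to 879 normalized counts in the transgenic group and 1272 to 1876 in wild-type mice, and the oligodendrocyte genes to 7865 to 10220.5 and 12793 to 18258, neither with overlap. The astrocyte genes summed to 9842 to 12591 and 9680.0 to 12786, which overlapped, since Slc1a3, a glutamate transporter with a level of 10176 ± 1068 in this fraction, made up most of the sum and was the gene that was higher (limma, log2 fold change 0.35, SE 0.085, adjusted p = 0.0262), and is named here after its values were seen. Among the genes with the smallest adjusted p were Nefm, a neurofilament (46.6 ± 19.0 against 244 ± 54.2; limma, log2 fold change -2.43, SE 0.30, adjusted p = 0.000945), and Slc4a4, an astrocyte bicarbonate transporter (86.4 ± 32.7 against 360.2 ± 173; limma, log2 fold change -2.01, SE 0.29, adjusted p = 0.00183). None of the genes of these 3 lists was at 0 in all mice of a group. At 10 months 1 of 9 tested neuron genes was lower, 1 of 11 astrocyte genes higher and 0 of 7 tested oligodendrocyte genes passed with limma (0 were lower and 0 higher at an unadjusted p under 0.05). The part of these cells in the endothelial values was not tested.

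Mural cells, the pericytes and smooth muscle cells of vessels, lie directly on the endothelium. Of 13 tested mural genes 1 passed at 7 months, Vtn, a pericyte matrix protein, which was lower (55.6 ± 18.4 against 152 ± 70.3; limma, log2 fold change -1.40, SE 0.35, adjusted p = 0.0301), and the median of the list was -0.12. Pdgfrb, the receptor that defines pericytes, had 52.0 ± 22.3 against 65.5 ± 19.5 (limma adjusted p = 0.55). The mural genes summed to 784 to 1311 normalized counts in the transgenic group and 936 to 1952 in wild-type mice at 7 months, and to 1127 to 3055 and 1009 to 2794 at 10 months, with overlap at both ages. Over the 20 mice, centred within groups, the median r with the mean of the 10 endothelial genes was 0.60 for mural genes, 0.56 for genes of endothelial identity, 0.53 for astrocyte genes and -0.19 for microglia genes. It was 0.47 for arterial, 0.45 for barrier Wnt pathway and 0.44 for capillary genes, and 0.45 for oligodendrocyte and 0.43 for neuron genes. The other vascular lists had lower values, with 0.13 for VEGF and angiopoietin genes, 0.064 for junction partners, -0.031 for venous and activation genes and -0.17 for barrier transporters.

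Markers of blood cells are given because platelets and myeloid cells also make Vwf and Pecam1 and monocytes make the relative of Ly6c1. Of 7 tested platelet genes 0 passed at 7 months with limma (0 were lower and 0 higher at an unadjusted p under 0.05), and the platelet chemokine Pf4 had 755 ± 202 against 701 ± 76.3. The platelet genes summed to 1283 to 1897 and 1379.9 to 1814 at that age, and 2 and 1 of the 11 were at 0 in all mice of the group. At 10 months Pf4 was lower (limma, log2 fold change -0.53, SE 0.14, adjusted p = 0.0373). Of 10 monocyte genes 0 passed at 7 months with limma (1 was lower and 0 higher at an unadjusted p under 0.05), and 7 of 10 were lower at 10 months, with summed levels of 24367 to 38954 against 41656 to 78981. The log2 fold change of all 10 monocyte genes was below 0 at both ages, as it was for the 10 endothelial genes at 7 months. Their medians were -0.43 at 7 months and -0.83 at 10 months. The microglia genes themselves were 4.24% to 4.93% of all reads in 7-month-old mThy1-α-synuclein mice and 4.10% to 4.33% in wild-type mice. At 7 months 1 of 13 passed, Gpr34, a lysophospholipid receptor, which was higher (limma, log2 fold change 0.53, SE 0.087, adjusted p = 0.00334), and at 10 months 4 of 13 were higher. The part of blood cells and of the microglia share in the endothelial values was not tested.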

How the data were processed

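RNA from the microglia fraction of 20 mice was sequenced as 150-base read pairs in a single run. Per the submitters' processing notes and methods, reads were trimmed (Trim Galore 0.6.7), aligned to mm10 (HISAT2 2.2.1) and assigned to genes (featureCounts). Strand and multi-mapping settings are not given in the sources used here. The deposited signal values are read counts per gene over the DESeq2 size factor of the mouse, which the authors computed separately for each age. Dividing by the step of each mouse gave back whole reads (100% of values between 100 and 5000, within 0.01), 33404096 to 77806399 per mouse.

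Genotypes were compared within an age with limma 3.58.1 (trend, robust; R 4.3.3) on log2(value + 1), two-sided, with Benjamini-Hochberg adjustment over all tested genes and a cutoff of 0.05. Genes entered the test with a value of 10 or more in 4 mice (7 months), 5 mice (10 months) or 4 of the 20 mice (difference between the ages). A fold change on this scale understates the change of low genes. edgeR 4.0.16 and DESeq2 1.42.0 were run on the recovered reads as alternatives. The fit was checked on simulated data. The limma p-values set a difference against the spread between mice, which limma moderates over all tested genes. The members, gene lists and tests were chosen with earlier results of these data known. All 10 members are named, and from each other list at most the 3 genes with the smallest adjusted p per comparison and its first gene, the close copies of members, Thy1, and the 5 genes most alike, while some of these genes are not reported here. Genes with a newer symbol than the table's were matched through RefSeq synonyms. Positions are from the GENCODE annotation of GRCm38 and promoters from RefSeq. Replicates of a group differed by more than counting noise, so none was counted as a repeat. Python 3.11.15, numpy 2.4.6, pandas 2.3.3 and matplotlib 3.10.9 were used.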

Additional observations from a re-analysis of the deposited data

Results flagged for a closer look

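In 2 of the 40 combinations of an endothelial gene and a group, 1 mouse stood apart from the rest of its group, as judged by its gap to the nearest mouse divided by the whole range of the group. Chance alone gives about 1 in 20 such combinations. In 7-month-old wild-type mice, Itm2a was lowest in replicate 3, with 116 normalized counts against 168 in the next mouse, a gap of 0.973 of the range (n = 4). In 10-month-old wild-type mice, Itm2a was highest in replicate 3, with 271 against 146 in the next mouse, a gap of 0.798 of the range (n = 5).

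For 9 named genes outside the 10, the genotype difference itself differed between the ages (10-month minus 7-month log2 fold change, limma with Benjamini-Hochberg adjustment). Among the vascular lists the value was positive for Ecscr (0.59, adjusted p = 0.0358), the junction partners Ctnnd1 (0.39, adjusted p = 0.0127) and Jup (0.50, adjusted p = 0.0245), and the capillary genes Spock2 (1.73, adjusted p = 0.049) and Hmcn1 (3.64, adjusted p = 0.0471). It was negative for the glucose transporter Slc2a1 (-0.63, adjusted p = 0.0371) and for Vcam1 (-1.21, adjusted p = 0.00726). The neuron gene Nefm and the astrocyte gene Slc4a4 had 2.25 and 2.04 (limma adjusted p = 0.00347 and 0.0279). Hmcn1 was not among the genes tested at 10 months alone.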

How the results depend on the processing

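The alternatives were pseudocounts of 0.5 and 5, no filter on low values, edgeR (quasi-likelihood test with TMM) and DESeq2 on the recovered reads, a block for the replicate number, and leaving out each mouse in turn. At 7 months the log2 fold change stayed below 0 for all 10 endothelial genes under all 16 alternatives, and of 160 values 150 kept their side of the cutoff, 4 gained a call and 6 lost one. DESeq2 called 4 of the 10 (Cldn5, Flt1, Pecam1 and Slco1a4), and 1157 genes in all at 7 months and 1684 at 10 months. The count of the 10 ranged from 1 to 4 when a mouse was left out, and that of all genes from 280 to 860 at 7 months, 489 to 1232 at 10 months and 618 to 1097 between the ages. At 10 months 0 of the 10 passed under every alternative. Between the ages 0 to 1 passed when a mouse was left out, the 1 being Cldn5 without mThy1-α-synuclein replicate 5. Signs turned in 3 of 160 values at 10 months, all without that mouse, with ranges over the mice left out of -0.54 to 0.093 for Cldn5, -0.27 to 0.070 for Cdh5 and -0.26 to 0.017 for Abcb1a, and in 19 of 260 between the ages, where leaving out a mouse gave ranges of -0.091 to 0.25 for Cdh5, -0.12 to 0.29 for Ly6c1, -0.038 to 0.46 for Tek and -0.10 to 0.32 for Vwf, and edgeR and DESeq2 each gave -0.029 for Ly6c1. The cause of these shifts was not tested. Of 522 counts of the other vascular lists under the alternatives, 134 moved by over 1.5 times, 107 of them when a mouse was left out.

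The replicate numbers were taken as a block although the labels do not pair mice. Mice with the same number deviated together with correlations from -0.13 to 0.10, so the numbers do not pair them. With the replicate block, 1 of the 10 genes passed at 7 months (Pecam1, while Cldn5 had an adjusted p of 0.0627), 414 of all genes passed at 7 months, and 482 passed between the ages.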

Other observations

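Of 9 tested genes of perivascular fibroblasts, cells that lie around the vessels, the collagens Col15a1 and Col6a3 were higher in mThy1-α-synuclein mice at 10 months, with 3989 ± 209.7 against 3253 ± 312 and 2849.8 ± 606 against 1524 ± 519 normalized counts (SD, n = 5 and 5; limma log2 fold change 0.30 and 0.95, SE 0.074 and 0.24, adjusted p = 0.027 and 0.0446). At 7 months 0 of 8 tested fibroblast genes passed with limma. At an unadjusted p under 0.05, 0 were lower and the same 2 collagens were higher at that age (limma, log2 fold change 0.24 and 0.68, adjusted p = 0.0642 and 0.063), and the test between the ages did not pass for either (limma adjusted p = 0.805 and 0.684). Col1a1, a main collagen of fibroblasts, had 15.0 ± 11.4 against 16.2 ± 8.39 at 7 months and 11.6 ± 8.08 against 15.0 ± 5.47 at 10 months.

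Of 5 tested T cell genes, Cd2 was lower at 7 months (limma, log2 fold change -1.65, SE 0.41, adjusted p = 0.0295) and Cd3d at 10 months (50.4 ± 21.3 against 249 ± 82.8; limma, log2 fold change -2.33, SE 0.32, adjusted p = 0.00143). The summed level of the ependymal and choroid plexus genes ranged from 1135 to 12888 in 7-month-old mThy1-α-synuclein and 2376 to 8526 in wild-type mice, and 0 of 7 tested genes passed at that age with limma (1 was lower and 0 higher at an unadjusted p under 0.05). At 10 months 0 of 6 passed, all 6 had a log2 fold change above 0 with a median of 1.13, and 3 were higher and 0 lower at an unadjusted p under 0.05 in limma. The only tested red blood cell gene did not pass at either age. The test between the ages gave positive values past the cutoff for 7 of 11 astrocyte and 4 of 12 neuron genes and negative values for 0 of both (limma with Benjamini-Hochberg adjustment).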
